A study of Mus musculus with 9 samples.

Results

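The neurotrophin system was followed through 7 genes in newborn CD-1 mouse hearts: the receptor genes Ngfr, Sort1, Ntrk2 and Ntrk3 and the growth factor genes Ntf3, Bdnf and Gdnf. They were chosen by symbol, with no threshold on their values, from the 39171 genes of the deposited comparison tables. Of the 7, only Ngfr, Ntf3 and Sort1 were among the 14479 genes of the deposited matrix, which gives a value for every library. For Bdnf, Ntrk2, Ntrk3 and Gdnf the values are the authors' group values, with no replicate spread. RNA was sequenced from 9 libraries of the frozen lower apex, 3 each after sham surgery, after ventricular apical resection (removal of the tip of the ventricle) and after the same resection with left vagotomy (transection of the vagus nerve on that side). All pups were operated on postnatal day 1 and collected on postnatal day 2. There was no group with vagotomy alone, so every vagotomy library also carries the resection. Whether the libraries come from separate pups is not stated, so p-values measure only the spread between these libraries, which may be technical.

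Neurotrophins are secreted as precursors that proteases such as furin and plasmin cut to the mature factor. The mature factors signal through the Trk receptor tyrosine kinases, TrkB (Ntrk2) for BDNF and TrkC (Ntrk3) for neurotrophin-3, whereas the precursors bind a complex of p75 (Ngfr) and sortilin (Sort1). In the heart, target-derived factors of this kind guide and keep alive autonomic nerve fibres. GDNF is a factor of a separate family that supports autonomic neurons and signals through Ret. In bulk tissue, fewer cells of a type and less RNA per cell cannot be told apart.

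Expression is in FPKM, fragment counts scaled to transcript length and sequencing depth, so levels of different genes can be set side by side. The number of reads behind a value is unknown. The median over the genes of the matrix was 7.52 to 8.29 FPKM per library. The third vagotomy library stood apart, with 740 genes listed at 0 against 203 to 311 in the other libraries. Cardiomyocyte markers, which check the labelled tissue, were abundant: 7 of 8 were summed in every library and came to 8830 to 30700 FPKM. The eighth, Myh6, was listed at 0 in all 3 vagotomy libraries and at 1330 FPKM or more in the other 6, and was left out of the sum. For vagotomy against resection the authors' deposited table gives Myh6 the Cuffdiff status HIDATA (too many fragments at the locus), not OK. Its 0 therefore cannot be read as an absence of transcript.

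The sortilin gene Sort1 was by far the most abundant of the 7 genes. Averaged over the 9 libraries it stood at 19.0 FPKM, higher than 72.6% of the genes in the matrix, against 1.24 FPKM for Ntf3, with 1 library listed at 0, and 0.842 FPKM for Ngfr. Sort1 was above both in 9 of 9 libraries, 15.4-fold above Ntf3 and 22.6-fold above Ngfr by the means. Ntf3 was above Ngfr in 6 of 9 libraries, so the order of these neighbours is within the spread between libraries. In the authors' deposited tables the other 4 genes were lower still: Ntrk3 had 0.438 to 0.66 FPKM in the group values, Gdnf 0.118 to 0.322 FPKM, Ntrk2 0.156 to 0.205 FPKM and Bdnf 0.0119 to 0.14 FPKM. The newborn apex thus held sortilin transcripts above the median level of the matrix and p75, TrkB and TrkC transcripts near or below 1 FPKM.

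**Figure D1:**
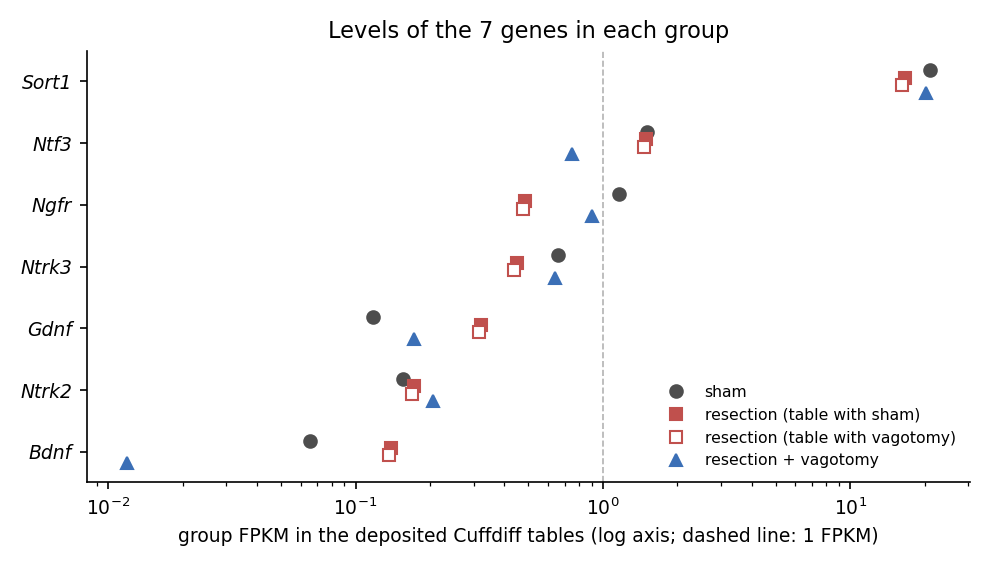
Group FPKM of the 7 genes on a log axis, as the authors' deposited tables give them, with 1 symbol per group and no error since the tables give none. Resection has 2 values because the 2 tables were normalized separately. Sort1 lies at 16.2 to 20.9 FPKM in every group, Ntf3 and Ngfr lie around the dashed line at 1 FPKM, and Ntrk3, Gdnf, Ntrk2 and Bdnf lie below it.

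Ngfr (ENSMUSG00000000120, minus strand of chromosome 11, 95568818 to 95587735 in GRCm38) encodes p75, the receptor shared by all neurotrophins, which is made by Schwann cells, some neurons and some vessel-wall and mesenchymal cells. It is the 1 gene of the 7 that the authors' deposited table called between groups, so the genomic sequence just before its start is shown. The stretch chr11:95587736-95587948 (minus strand, GRCm38.p6, from RefSeq) ends at the base before the annotated gene and reads, with the GC box GGGCGG in capitals:

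Ngfr upstream: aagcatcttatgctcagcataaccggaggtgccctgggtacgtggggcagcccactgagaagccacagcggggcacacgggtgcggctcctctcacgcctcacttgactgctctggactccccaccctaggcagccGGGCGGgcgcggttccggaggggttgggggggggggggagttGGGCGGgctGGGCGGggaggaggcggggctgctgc

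These 213 bases are 70.9% G or C, against a median of 51.6% in windows from 27025 mouse genes. Each window is the first 213 bases of the gene's RefSeq upstream sequence. Unlike the Ngfr stretch, the windows were not cut to end at the annotated gene start, so their distance to it can differ. GGGCGG, the box bound by Sp1, occurred 3 times (both strands searched) and in 27.4% of those windows at least once. TATAAA, found in 10% of the windows, and CACGTG, found in 4.83%, had no match. RefSeq upstream sequences were matched for 5 of the 7 genes, without Ntrk3 and Sort1.

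After sham surgery the 3 libraries read 2.06, 0.867 and 0.508 FPKM of Ngfr. After resection they read 0.752, 0.353 and 0.322 FPKM, and after resection with vagotomy 0.46, 1.06 and 1.2 FPKM. The first sham library was the highest of all 9, and the first resection library lay inside the sham range, so the groups overlapped. Group means of Ngfr were 1.14 ± 0.81 FPKM in sham, 0.476 ± 0.24 FPKM after resection and 0.907 ± 0.394 FPKM after resection with vagotomy (SD, n = 3). The authors' deposited table gave Ngfr 1.16 FPKM in sham and 0.484 FPKM after resection, 2.4-fold lower, and called this difference (Cuffdiff p = 0.00215, q = 0.0377). The authors tested 3 of the 7 genes, and Ngfr was the 1 called. Of the genes they tested in that comparison 6.12% were called, and 1.93% were called lower after resection. By limma the difference did not pass. With all genes of the matrix tested by limma on log2(FPKM + 1), Ngfr differed by -0.49 (SE 0.31, 95% interval -1.18 to 0.21, adjusted p = 1), and an exact two-sided permutation test gave p = 0.2, where 3 libraries against 3 cannot go below 0.1. Without the first sham library the difference was -0.20, and with a pseudocount of 0.1, which weighs low values more, it was -0.99 (limma adjusted p = 1). Between vagotomy and resection the authors' deposited table gave Ngfr 0.903 against 0.475 FPKM without a call (Cuffdiff q = 0.207, 0 of the 3 tested genes called against 17.1% of all genes tested by the authors), and limma gave 0.36 (SE 0.31, 95% interval -0.33 to 1.05, adjusted p = 0.519).

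Sort1 (ENSMUSG00000068747, plus strand of chromosome 3, 108284082 to 108361511) encodes sortilin, a sorting receptor of the Golgi and cell surface that binds neurotrophin precursors and many other cargoes. It read 19.9, 22.4 and 19.4 FPKM after sham surgery, 10.4, 17.8 and 20.7 FPKM after resection and 25.5, 20.5 and 14.6 FPKM after resection with vagotomy. Sham libraries lay close together and within the range of the vagotomy libraries, and the first resection library was the lowest of the 9. Means of Sort1 were 20.6 ± 1.59, 16.3 ± 5.35 and 20.2 ± 5.45 FPKM (SD, n = 3). By limma, Sort1 differed by -0.37 between resection and sham (SE 0.30, 95% interval -1.03 to 0.30, adjusted p = 1) and by 0.32 between vagotomy and resection (95% interval -0.35 to 0.98, adjusted p = 0.557). Without the first resection library the first of these was -0.09 and the second 0.04. The authors' deposited tables gave Sort1 20.9 against 16.6 FPKM for sham and resection (q = 0.563) and 16.2 against 20.1 FPKM for resection and vagotomy (q = 0.507), both without a call. An antisense gene, Gm12523, shares the deposited locus of Sort1 and was listed at 0 in every group of the authors' deposited tables.

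Ntrk2 and Ntrk3 were measured only as group values. Ntrk3 (chromosome 7, 78175959 to 78738012), the receptor of neurotrophin-3, had 0.66 FPKM in sham and 0.448 FPKM after resection in one of the authors' deposited tables. In the other table Ntrk3 had 0.438 FPKM after resection and 0.641 FPKM with vagotomy. Ntrk2 (chromosome 13, 58806569 to 59133970), the receptor of BDNF, had 0.156 and 0.173 FPKM in the first of the authors' deposited tables and 0.169 and 0.205 FPKM in the second. Both genes also make shortened receptors without the kinase, which gene-level values do not separate. The authors tested neither gene for a difference. By the annotation 4 other genes overlap Ntrk2 and 4 overlap Ntrk3, on either strand, and whether strand was used in counting is not given in the sources used here.

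Ntf3 (ENSMUSG00000049107, minus strand of chromosome 6, 126101412 to 126166910) encodes neurotrophin-3, which supports sensory and sympathetic neurons and acts through TrkC in the developing heart. It read 1.63, 1.66 and 1.14 FPKM after sham surgery and 1.5, 1.67 and 1.25 FPKM after resection. After resection with vagotomy it read 1.63 and 0.638 FPKM in the first 2 libraries and was listed at 0 in the third, the library with the most genes at 0. Sham and resection libraries therefore covered the same range, and the first vagotomy library lay inside it while the others lay below. The mean was 1.48 ± 0.291 FPKM in sham and 1.47 ± 0.209 FPKM after resection (SD, n = 3), a limma log2 difference of 0.00 (95% interval -0.77 to 0.78, adjusted p = 1). For vagotomy against resection the limma difference in Ntf3 was -0.60 (SE 0.35, 95% interval -1.38 to 0.18, adjusted p = 0.319), and without the third vagotomy library it was -0.25 (limma adjusted p = 0.655). It was -1.64 with a pseudocount of 0.1 and -0.18 with a pseudocount of 5. The authors' deposited table gave Ntf3 0.752 FPKM with vagotomy against 1.47 FPKM after resection, without a call (q = 0.524).

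**Figure D2:**
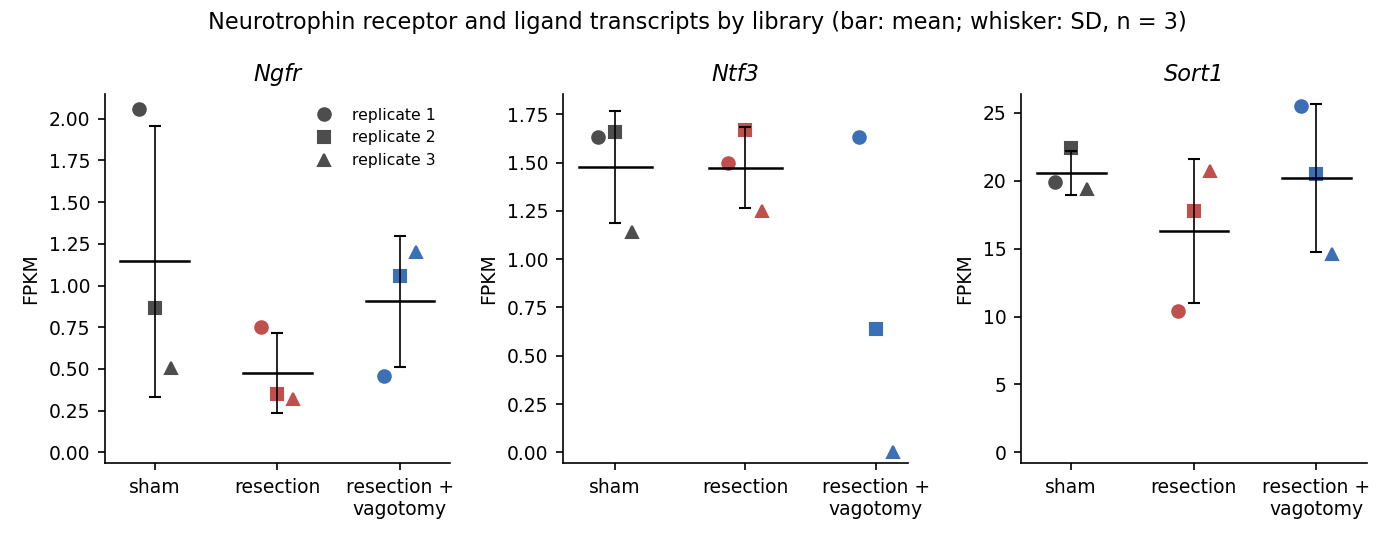
FPKM of Ngfr, Ntf3 and Sort1 in each of the 9 libraries, by group, with a different symbol for each replicate number. The horizontal bar is the group mean and the whisker the SD (n = 3), both left out where a library is listed at 0. The first sham library stands out at 2.06 FPKM of Ngfr, and the vagotomy libraries spread from 0 to 1.63 FPKM of Ntf3.

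Bdnf and Gdnf had group values of at most 0.322 FPKM. Bdnf (chromosome 2, 109674700 to 109727007), the factor for TrkB, had 0.0653 FPKM in sham and 0.14 FPKM after resection in one of the authors' deposited tables, and 0.136 FPKM after resection and 0.0119 FPKM with vagotomy in the other. Gdnf (chromosome 15, 7810846 to 7837575) had 0.118 FPKM in sham and 0.322 FPKM after resection, and 0.316 FPKM after resection and 0.172 FPKM with vagotomy, in the same deposited tables by the authors. The values of both were highest after resection. The authors tested neither gene, and without library values or read counts these differences carry no error. An antisense gene, Gm45346, overlaps Bdnf.

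Taking the 7 genes as a group, 0 passed the threshold of an adjusted p under 0.05 by limma in any of the 3 comparisons. Of the 7, Ntf3 and Sort1 passed the filter on low values, a mean of at least 1 FPKM, and 0 of these 2 had an unadjusted p under 0.05, against 5.89%, 24.2% and 30.1% of all tested genes for resection against sham, vagotomy against resection and vagotomy against sham. Over the 13249 genes tested by limma, 0.294% were called for resection against sham, 3.52% for vagotomy against resection and 10.1% for vagotomy against sham. Without the filter, when Ngfr was tested too, the shares called were 0.242%, 3.09% and 8.88%. In none of the 3 comparisons did the libraries of Ngfr, Ntf3 or Sort1 separate (0 of 3 genes), while 11.4%, 25.5% and 36.1% of the genes in the matrix had groups that did not overlap. Counts this small, from 3 genes, cannot place the neurotrophin genes apart from these shares. The intervals still allow sizeable differences in log2(FPKM + 1). They reach 1.18 below sham for Ngfr after resection, and 1.38 below resection for Ntf3 with vagotomy. Adding 1 shrinks differences between low values, so these are not limits on the fold. With a pseudocount of 0.1 the Ngfr interval reached -2.39 and the Ntf3 estimate itself was -1.64.

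**Figure D3:**
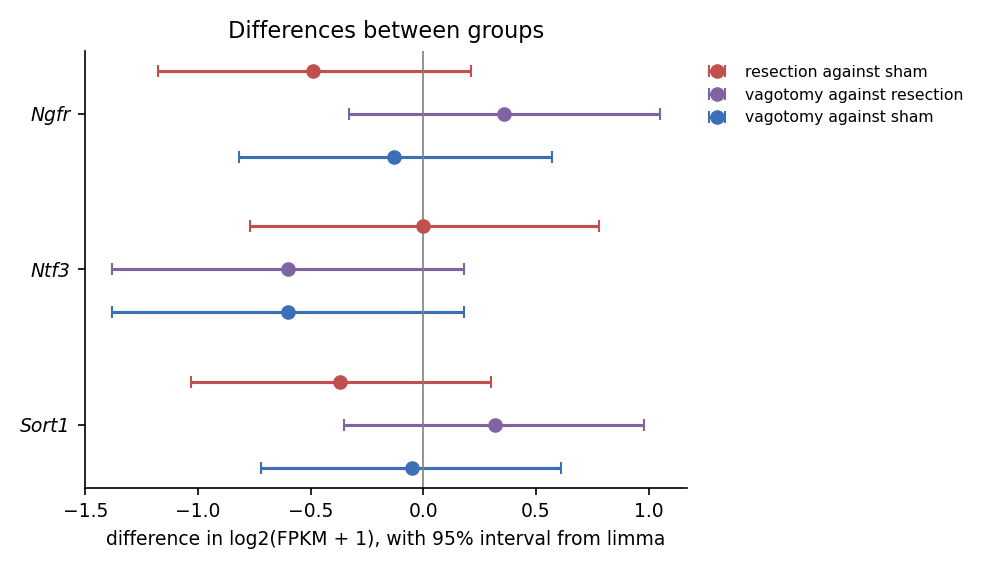
Differences in log2(FPKM + 1) of Ngfr, Ntf3 and Sort1 for the 3 comparisons, with 95% intervals from limma. Ngfr comes from the fit without a filter on low values. All 9 intervals include 0.

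The 2 members that passed the filter were set against all other tested genes for likeness of pattern over the 9 libraries, as a description only. Ntf3 was most like Inpp5b (Pearson r = 0.943, Spearman rho = 0.867), Rbpms (r = 0.942, rho = 0.833) and Hdac4 (r = 0.935, rho = 0.9). Sort1 was most like Zc3hav1l (r = 0.914, rho = 0.883), Znrf3 (r = 0.912, rho = 0.783) and Ep400 (r = 0.888, rho = 0.567). All points share the same 9 libraries, and these are the highest of 13249 genes, so high values arise among them by selection.

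The pathway around the members was described through 5 lists with 72 further genes, of which 53 were tested. For resection against sham 0 of the 53 passed by limma, against 0.294% of all tested genes, with a median log2 difference of 0.04 (all genes -0.01). An unadjusted p under 0.05 was found for 2 of the 53, and for 5.89% of all tested genes. For vagotomy against resection 1 rose and 1 fell, 3.77% against 3.52%, with a median of 0.17 (all genes 0.02). For vagotomy against sham 2 rose and 1 fell, 5.66% against 10.1%, with a median of 0.11 (all genes 0.03).

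Among 7 tested ligands and processing genes, Mmp9 was higher with vagotomy than in sham. It read 1.03, 1.83 and 2.75 FPKM in sham, 19.5, 5.99 and 11.6 FPKM after resection and 8.91, 13.6 and 24.4 FPKM with vagotomy, so that the 3 sham libraries lay below the other 6. Mmp9, a metalloproteinase that cuts neurotrophin precursors, rose from 1.87 ± 0.865 FPKM in sham to 15.6 ± 7.94 FPKM with vagotomy (SD, n = 3, limma log2 difference 2.47, SE 0.45, adjusted p = 0.0134), and the limma adjusted p was 0.0635 without the second sham library and 0.0542 without the third. After resection alone Mmp9 stood at 12.3 ± 6.77 FPKM (limma adjusted p = 0.094). Mmp9 is also made by inflammatory cells. Macrophage markers summed to 39.4 to 62.4 FPKM in sham, 154 to 285 FPKM after resection and 209 to 242 FPKM with vagotomy. Of these 8 markers 3 were called higher after resection than in sham, beside 0.294% of all tested genes. With vagotomy 5 of 8 were called higher than in sham, beside 10.1%, and 0 of 8 were called against resection, beside 3.52%. The part of macrophage markers in the Mmp9 values was not tested.

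Among 13 tested receptors, co-receptors and p75 partners, Maged1 changed. It encodes NRAGE, a protein that binds the inner part of p75. Maged1 read 60.5, 46.2 and 42.6 FPKM in sham, 65.3, 40.7 and 80.8 FPKM after resection and 146, 176 and 123 FPKM with vagotomy, so that all 3 vagotomy libraries lay above the other 6. It rose by 1.28 against resection (SE 0.31, limma adjusted p = 0.0493) and by 1.56 against sham (adjusted p = 0.0172). The first of these calls was close to the threshold and held in 3 of 16 alternatives, with a limma adjusted p of 0.0391 to 0.159, and the second in 13 of 16 (0.0116 to 0.0883). The call against resection was lost without any 1 library other than the third resection library, and the call against sham without sham replicate 2, sham replicate 3 or vagotomy replicate 2.

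Of 6 tested genes that neurotrophins induce in neurons, Dusp6, the phosphatase that switches off ERK, fell with vagotomy. It read 15, 20.4 and 20.8 FPKM in sham, 17.8, 23.6 and 19.4 FPKM after resection and 11.7, 8.7 and 8.09 FPKM with vagotomy, so that all 3 vagotomy libraries lay below the other 6. Dusp6 fell by 1.03 on the log2 scale against resection (limma adjusted p = 0.0491) and by 0.91 against sham (adjusted p = 0.0431). These calls held in 3 and 9 of 16 alternatives, with limma adjusted p from 0.0375 to 0.165 and from 0.035 to 0.176. The call against resection was lost without any 1 library other than the first resection library, and the call against sham without sham replicates 2 or 3, resection replicate 3 or any of the 3 vagotomy libraries.

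One cardiomyocyte marker, Actn2, was called higher in the same comparisons as Maged1 and Dusp6. Of all 8 markers, 6 had a positive difference for vagotomy against resection (median 0.18) and 3 for vagotomy against sham (median -0.05). Without Myh6 the markers summed to 11800 to 14100 FPKM in sham, 8830 to 12900 FPKM after resection and 12000 to 30700 FPKM with vagotomy. In the third vagotomy library, the one with the most genes at 0, Tnnt2 alone read 18800 FPKM. It read 2840 and 4370 FPKM in the first and second vagotomy libraries. Actn2, the sarcomere protein alpha-actinin, rose from 302 ± 116 FPKM after resection to 872 ± 189 FPKM with vagotomy (SD, n = 3, limma log2 difference 1.59, SE 0.36, adjusted p = 0.0442) and was 1.41 above sham (limma adjusted p = 0.0389). It was the 1 of the 7 summed markers called in either comparison. Of all tested genes 3.52% were called for vagotomy against resection and 10.1% for vagotomy against sham. A count of 1 from 7 markers cannot be set apart from these shares. Myh6 was called lower in both comparisons, but these calls rest on the 0 that carries the status HIDATA and cannot be read as a fall. The part of cardiomyocyte markers in the Maged1 and Dusp6 values was not tested.

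Of 23 tested Trk adaptors and effectors and 4 tested genes of the GDNF family, 0 passed by limma in any comparison. At an unadjusted p under 0.05 the adaptor counts were 0, 6 and 4 and the GDNF family counts 0, 1 and 1 for resection against sham, vagotomy against resection and vagotomy against sham. Over all tested genes the shares were 5.89%, 24.2% and 30.1%, and counts from lists this small are not set apart from them. Same-numbered resection and vagotomy libraries deviated together weakly (r = 0.117 to 0.199), though no label names them as pairs. With the replicate number as a block, 5 of the 53 genes passed for vagotomy against resection, 9.43% against 9.64% of all genes. These were Maged1, Dusp6 and 3 of the adaptors: the Trk scaffold Kidins220 (0.99, limma adjusted p = 0.0374), the PI3-kinase subunit Pik3r1 (1.10, limma adjusted p = 0.0407) and the adaptor Crk (-0.90, limma adjusted p = 0.0379). The members stayed at 0 calls under the block.

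**Figure D4:**
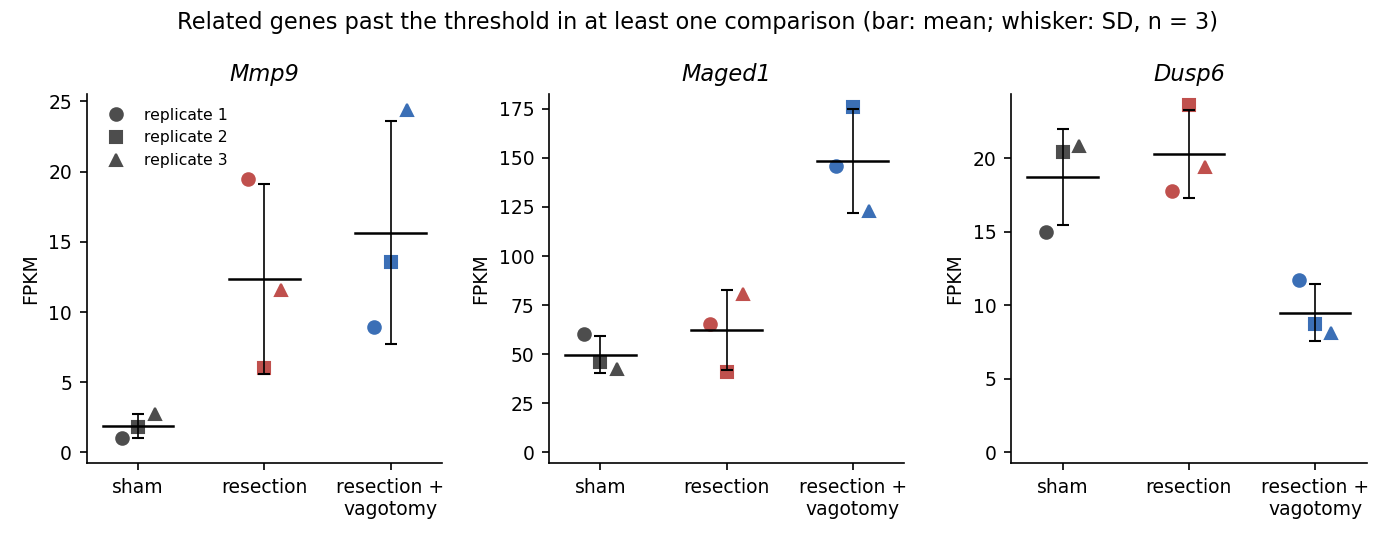
FPKM in each library of 3 related genes that passed the threshold in at least 1 comparison, with group means (bar) and SD (whisker, n = 3). Mmp9 is lowest in sham, while Maged1 is highest and Dusp6 lowest in the vagotomy libraries.

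Schwann cells and neurons are among the cells that carry neurotrophin receptors, and most of their markers were outside the matrix. Of 10 Schwann and glial markers 4 were in the matrix and summed to 11 to 11.6 FPKM in sham, 10.4 to 15.1 FPKM after resection and 8.84 to 14.3 FPKM with vagotomy. The defining Schwann cell factor Sox10 had 0.113 FPKM in sham and 0.0237 FPKM after resection in one of the authors' deposited tables, and 0.0228 FPKM after resection and 0.117 FPKM with vagotomy in the other. Both Sox10 and Ngfr had their lowest group value after resection. Of 15 neuron markers 2, Stmn2 and Uchl1, were in the matrix and summed to 15.7 to 24 FPKM in sham, 11.8 to 46 FPKM after resection and 13.9 to 24.2 FPKM with vagotomy. Slc18a3 was not matched in the tables, and the rest reached at most 0.834 FPKM in any group of the authors' deposited tables, and the noradrenergic enzyme genes Th and Dbh at most 0.143 and 0.519 FPKM. By limma 0 of the 3 tested Schwann and 0 of the 2 tested neuron markers passed in any comparison, also at an unadjusted p under 0.05. Of all tested genes 5.89%, 24.2% and 30.1% had such a p in the 3 comparisons, so these counts are too small to differ from the shares. Their part in the Ngfr values was not tested.

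Smooth muscle and pericyte markers summed to 368 to 428 FPKM in sham, 369 to 417 FPKM after resection and 453 to 626 FPKM with vagotomy, and fibroblast markers to 1050 to 1500, 888 to 1210 and 782 to 1070 FPKM. With vagotomy against sham, 1 of 8 smooth muscle and pericyte markers rose (Tagln) and 1 of 3 endocardial markers rose (Plvap). In the same comparison 1 of 7 endothelial markers fell (Emcn), which also fell against resection. Of all tested genes 10.1% were called for vagotomy against sham, 3.52% for vagotomy against resection and 0.294% for resection against sham. Counts from lists this small are not set apart from these shares. Fibroblast, epicardial and platelet markers had 0 calls by limma in any comparison. At an unadjusted p under 0.05 the counts for resection against sham, vagotomy against resection and vagotomy against sham were 0, 1 and 2 of 7 fibroblast, 0, 2 and 3 of 7 epicardial and 3, 1 and 2 of 5 platelet markers. The shares of all tested genes were 5.89%, 24.2% and 30.1%. Platelet markers, read beside Bdnf, summed to 5.13 to 7.4 FPKM in sham, 17 to 51.2 FPKM after resection and 12.3 to 23.3 FPKM with vagotomy. The group values of Bdnf were 0.0653 FPKM in sham and 0.14 FPKM after resection in one of the authors' deposited tables. In the other they were 0.136 FPKM after resection and 0.0119 FPKM with vagotomy. Bdnf was thus lowest with vagotomy, where the platelet sums lay above those of sham. The part of platelet markers in the Bdnf values was not tested.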

How the data were processed

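Per the submitters' processing notes, TopHat2 2.0.9, Cufflinks 2.1.1 and Cuffdiff 2.1.1 were used with GRCm38. The roles and settings of these tools and the library strandedness are not given in the sources used here. The deposited matrix holds FPKM to which the authors added 1, and this 1 was subtracted. Every gene of the matrix exceeds 1 FPKM in at least 1 library, and 441 genes outside it have a group value above 1 FPKM. The authors' deposited tables hold group FPKM with Cuffdiff p-values and q-values. No read counts were used.

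The tests used limma (version 3.58.1, under R 4.3.3) on log2(FPKM + 1) of the 13249 genes whose mean reached 1 FPKM. A single model held the 3 group means of all 9 libraries, with a mean-variance trend, two-sided, with Benjamini-Hochberg adjustment and a threshold of 0.05. The fit was tested on simulated data. Gene positions are from GENCODE M21 (GRCm38). All 7 members are named, with related genes past the threshold, marker lists (Schwann and glial, neuron, smooth muscle and pericyte, fibroblast, endothelial, endocardial, epicardial, cardiomyocyte, macrophage and platelet) and the 3 tested genes most correlated with each tested member. Some related genes are not reported here and were left out of the lists, their counts and medians, but not of the fit. Members and lists were chosen with earlier results of these data known.

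Same-numbered libraries were checked for pairing by correlating their deviations from the group means over genes. For vagotomy and resection the 3 values were 0.117 to 0.199, all above 0.1, and the replicate number was used as a block in an alternative fit. These numbers come from the sample titles, which name no pairing. The third libraries carry different numbers in the authors' column names. Whether the libraries are pairs is therefore not known. Sham replicate 3 and resection replicate 2, which differ in number, reached 0.335. For sham the lowest were 0.013 with resection and -0.019 with vagotomy.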

Additional observations from a re-analysis of the deposited data

How the results depend on the processing

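The number of members past the threshold was 0 under each of 16 alternatives in all 3 comparisons. The replicate block left the log2 differences of Ntf3 (-0.60 for vagotomy against resection), Sort1 (0.32) and Ngfr (0.36) the same to 2 decimals and changed no call of a member. With it, 10 of the 53 related genes (18.9%) passed for vagotomy against sham, against 3 without it, beside 18.2% of all genes with it, and 55 genes in all passed for resection against sham. Ngfr was tested without the filter, with 11 further alternatives chosen after seeing the data, and kept its sign against sham after resection in all 11 (-0.99 to -0.20). Differences near 0 changed sign. For Ntf3 after resection these were 0.00 with a pseudocount of 5, -0.01 with upper-quartile scaling, and -0.10, -0.01 and -0.05 without sham replicate 3 and resection replicates 1 and 2 (-0.10 to 0.07 leaving out 1 library). For Sort1 with vagotomy against sham they were 0.01 without sham replicate 2 and 0.15 without vagotomy replicate 3 (-0.23 to 0.15), and for Ngfr 0.16 without sham replicate 1 and 0.06 without vagotomy replicate 1 (-0.35 to 0.16). Dusp6 after resection was -0.03 without sham replicate 1 (-0.03 to 0.20), and Mmp9 with vagotomy against resection -0.06 and -0.02 without resection replicate 2 and vagotomy replicate 3 (-0.06 to 0.72). The cause was not tested.

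The count over all genes for resection against sham was 39, and 66 and 23 with pseudocounts of 0.1 and 5, 13 with only the 6 libraries compared, and 11 to 59 leaving out 1 library. For vagotomy against resection it was 466, and 29 with the 6 libraries compared, 1277 with the replicate block and 42 to 591 leaving out 1 library. For vagotomy against sham it was 1334, and 2413 with the replicate block and 100 to 1701 leaving out 1 library. Read depth, which limits values near 1 FPKM, is unknown.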
